A study of Mus musculus with 2 samples.

Results

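The genes of TGF-beta signalling from ligand to SMAD corepressor were examined for accessible chromatin in colonic macrophages: Tgfb1, Tgfbr1, Tgfbr2, Smad2, Smad3, Smad4, Smad7, Ski and Skil. A peak belonged to a gene when it overlapped the RefSeq span of that gene or the 10 kb on either side of it (mm10). These 9 genes, of 49943 in the RefSeq table, took 160 of 128129 Tle4cKO peaks and 157 of 128737 WT peaks. The assay was ATAC-seq: a transposase cuts open DNA and leaves sequencing adapters there. The Tle4cKO library came from Tle4f/f Lyz2-Cre mice, in which the Cre recombinase is made from the myeloid Lyz2 gene and Tle4, a Groucho-type corepressor without DNA binding of its own, is deleted where that Cre is active. The WT library came from Lyz2-Cre mice, which carry the same Cre and intact Tle4. All mice were untreated males of the C57BL/6 strain aged 18.9 weeks, and each library pooled the sorted Siglec-F(-)Ly6C(lo)CD64(+) colon cells of 2 mice. With 1 library per genotype, differences between mice cannot be told apart from differences between genotypes, and every value describes these libraries with no replicate check.

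TGF-beta1 is secreted in a latent form and, once freed, binds the receptor TGFBR2, which then activates TGFBR1. TGFBR1 phosphorylates SMAD2 and SMAD3, which join SMAD4 and enter the nucleus to act on target genes. SMAD7 is an inhibitory SMAD that blocks the receptor, and SKI and SKIL (also called SnoN) bind SMAD complexes and recruit corepressors. In the gut, TGF-beta helps monocytes become resident macrophages, and it restrains their inflammatory output.

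The start regions of 5 of the 9 genes are listed in the RefSeq promoter table for GRCm38.p6, the assembly behind mm10, each from 250 bases before to 50 bases after an annotated start. They are shown because they differ in what lies over them: the starts of Tgfb1, Tgfbr2, Smad3 and the main start of Tgfbr1 were covered by a peak in both lists, and the start of Ski and the second start of Tgfbr1 were not. The sequences run 5′ to 3′ on the strand of the gene, and capitals mark each CG dinucleotide.
Tgfb1, chr7:25686752-25687051, plus strand: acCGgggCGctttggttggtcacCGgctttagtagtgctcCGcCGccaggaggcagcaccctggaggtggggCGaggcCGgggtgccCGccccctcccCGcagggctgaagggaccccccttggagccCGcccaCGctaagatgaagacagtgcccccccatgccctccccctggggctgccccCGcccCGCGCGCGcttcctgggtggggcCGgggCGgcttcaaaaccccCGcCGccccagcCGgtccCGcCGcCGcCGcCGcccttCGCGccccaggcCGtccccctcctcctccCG
Tgfbr1 main start, chr4:47352972-47353271, plus strand: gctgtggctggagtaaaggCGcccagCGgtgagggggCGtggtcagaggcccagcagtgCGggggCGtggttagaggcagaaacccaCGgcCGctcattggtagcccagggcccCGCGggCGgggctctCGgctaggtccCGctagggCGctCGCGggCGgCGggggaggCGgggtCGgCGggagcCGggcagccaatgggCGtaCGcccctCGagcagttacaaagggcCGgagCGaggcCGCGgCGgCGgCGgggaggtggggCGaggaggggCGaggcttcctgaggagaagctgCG
Tgfbr1 second start, chr4:47385966-47386265, plus strand: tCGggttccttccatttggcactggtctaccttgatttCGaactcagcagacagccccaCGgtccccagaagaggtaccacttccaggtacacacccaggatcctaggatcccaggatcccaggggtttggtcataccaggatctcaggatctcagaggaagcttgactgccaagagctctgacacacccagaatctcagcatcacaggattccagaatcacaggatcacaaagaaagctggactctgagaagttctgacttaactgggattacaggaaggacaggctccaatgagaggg
Tgfbr2, chr9:116175314-116175613, minus strand: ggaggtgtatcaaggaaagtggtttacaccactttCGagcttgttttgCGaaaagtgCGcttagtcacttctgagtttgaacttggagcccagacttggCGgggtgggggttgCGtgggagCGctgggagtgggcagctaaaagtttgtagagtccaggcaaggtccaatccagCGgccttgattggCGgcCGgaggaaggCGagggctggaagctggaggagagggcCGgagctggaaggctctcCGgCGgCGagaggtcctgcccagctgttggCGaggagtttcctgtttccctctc
Smad3, chr9:63757945-63758244, minus strand: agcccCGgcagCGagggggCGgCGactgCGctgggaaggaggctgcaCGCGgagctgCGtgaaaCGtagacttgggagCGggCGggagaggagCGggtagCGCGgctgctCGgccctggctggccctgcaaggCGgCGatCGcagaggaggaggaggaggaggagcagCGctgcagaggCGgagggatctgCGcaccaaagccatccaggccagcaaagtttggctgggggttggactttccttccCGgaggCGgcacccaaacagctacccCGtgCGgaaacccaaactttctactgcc
Ski, chr4:155222486-155222785, minus strand: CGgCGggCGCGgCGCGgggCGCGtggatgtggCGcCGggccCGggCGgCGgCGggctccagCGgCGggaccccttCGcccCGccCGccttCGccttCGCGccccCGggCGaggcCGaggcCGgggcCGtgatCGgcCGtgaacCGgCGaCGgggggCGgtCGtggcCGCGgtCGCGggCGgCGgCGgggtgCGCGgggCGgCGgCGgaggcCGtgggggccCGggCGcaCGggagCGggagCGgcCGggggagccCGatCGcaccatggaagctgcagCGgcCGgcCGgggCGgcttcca

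The covered starts held between 15 CG dinucleotides at Tgfbr2 and 34 at the main start of Tgfbr1, against a median of 7 over all 32851 promoter entries of the table. The second start of Tgfbr1 held 3, and no peak of either list lay within its 300 bases. Counted along the gene from this start, the nearest summit lay at -3895 bases in Tle4cKO and at 7093 bases in WT. Over the whole table, 12.3% of entries with under 5 CG overlapped a Tle4cKO peak and 13.3% a WT peak, so an uncovered start of that kind was common. The start of Ski was the exception among the CG-rich ones. It held 59 CG, more than 99.9% of entries, with 85.3% G and C, and both lists left it uncovered between 2 peaks. Of the entries with 40 or more CG, 89.3% overlapped a Tle4cKO peak and 89.4% a WT peak.

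A search of both strands of these entries for the SMAD palindrome GTCTAGAC, the SMAD element GGCGCC, the AP-1 site TGANTCA, the PU.1 site GAGGAAGT, the TCF/LEF site CTTTGAT, the RUNX site TGTGGT and the HES box CACGNG matched few letters. GGCGCC occurred once at the main start of Tgfbr1 and once at Ski, and in 11.9% of all entries. CACGNG occurred 2 times at Smad3 and 2 times at Ski, and in 27.5% of all entries. The other motifs, held by between 0.213% and 16.8% of all entries, were not among the letters of these windows.

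Over the whole lists the median pileup, the number of overlapping fragments at a peak's summit, was 20 in Tle4cKO and 28 in WT, with no scaling between the libraries recorded. A shared peak was therefore read against pairs of like pileup. All pairs were ordered by summed pileup into 50 bins, and the log2 of Tle4cKO over WT pileup had the bin median subtracted, which gives the relative log2 ratio. At the targeted gene, with the same flanks, there were 14 Tle4cKO peaks with pileups of 8 to 220 and 22 WT peaks with 8 to 238. Which exons are deleted is not given in the labels, so these counts do not check the genotype. All 10 macrophage markers examined, among them Csf1r, Cx3cr1 and Fcgr1 (CD64), had a peak within 1000 bp of a gene end in each list. Their strongest gene-end pileups ran from 71 to 191 in Tle4cKO and from 95 to 222 in WT. Gene-end peaks were also present, in Tle4cKO and WT, at 3 and 4 of 4 monocyte, 4 and 4 of 5 neutrophil, 2 and 2 of 4 eosinophil, 3 and 3 of 5 T cell, 5 and 5 of 5 B cell, 4 and 4 of 5 epithelial, 4 and 4 of 5 fibroblast, and 1 and 3 of 4 endothelial markers. Some of these were as high as macrophage markers: Cd3d had 126 in Tle4cKO and 144 in WT, Cd79a 71 and 153, and Pecam1 no gene-end peak in Tle4cKO and 171 in WT. Gene-end peaks alone therefore do not set the sorted cells apart from other types. The WT peaks of 153 at Cd79a and 171 at Pecam1 overlapped Tle4cKO peaks, since the highest WT-only pileups there were 12 and 51. With the 10 kb flanks, Tle4cKO pileups reached 121 at Cd79a and 132 at Pecam1. At Ccr2 the WT gene-end peak of 79 was shared too, with WT-only pileups of at most 23. A missing gene-end peak in Tle4cKO thus does not mean a missing peak. Camp, Epx, Prg2, Cd3g, Cd8a, Muc2, Dcn and Tek had no such peak in either list, and Ccr2, Pecam1 and Cdh5 had none in Tle4cKO. The part of these cells in the values below was not tested. In bulk chromatin, fewer cells with an open site and a less open site in each cell cannot be told apart.

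Every one of the 9 genes had a strong peak at a gene end in both libraries. The strongest gene-end pileup ranged from 116 at Smad7 to 179 at Tgfb1 and Skil in Tle4cKO, and from 138 at Smad7 to 213 at Tgfbr1 in WT. Pooled over the 9 genes, 36.3% of Tle4cKO peaks and 34.4% of WT peaks lay at or above the upper quartile of the own list. That quartile began at a pileup of 47 in Tle4cKO and 67 in WT. Not every gene was as strong. The median pileups of Smad2 (11 and 13.5) and Smad4 (15.5 and 20) lay below the whole-list medians of 20 and 28. That of Tgfbr1 did so in Tle4cKO (13.5). The peak density of the 9 genes was 0.993 to 2.69 peaks per 10 kb in Tle4cKO and 1.54 to 2.79 in WT. The medians over 21887 protein-coding genes were 0.842 and 0.868.

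**Figure D1:**
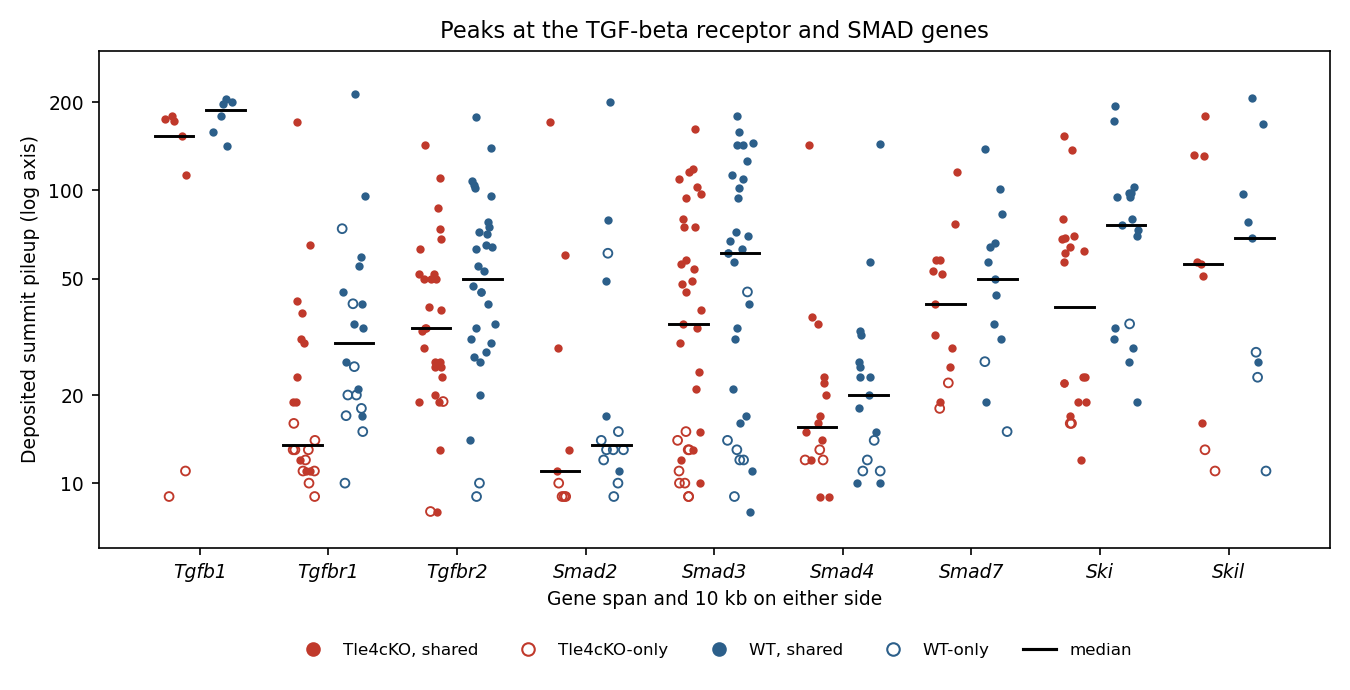
Summit pileup (log axis, as deposited) of every peak within each gene span and 10 kb on either side, with Tle4cKO left and WT right of each gene name; filled points overlap a peak of the other list, open points do not, and black bars are medians. All 36 open Tle4cKO points lie at 22 or below, and the highest open WT point, at Tgfbr1, lies at 74.

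Peaks found in 1 list made up 36 of 160 Tle4cKO peaks (22.5%, 95% Wilson interval 16.7% to 29.6%) and 36 of 157 WT peaks (22.9%, 17.05% to 30.1%). Over all peaks the shares were 23.5% and 27.1%, within both intervals, so the counts at these genes, with all strengths pooled, were near the background. Intervals here and below cover counting error only. The list-only peaks were weak. Their median pileup was 12 in Tle4cKO and 14 in WT, against 39.5 and 61 for the shared peaks of the same genes. With a pileup of 7 to 14, 29 of 44 Tle4cKO peaks (65.9%) and 20 of 26 WT peaks (76.9%) were list-only. Of all such peaks, 56.2% and 71.6% were. With 15 to 24, 7 of 32 (21.9%) and 8 of 22 (36.4%) were, against 8.10% and 29.1%. With a pileup of 25 to 39, 0 of 22 Tle4cKO peaks and 4 of 27 WT peaks (14.8%) were list-only, against 2.67% and 10.5% of all such peaks. With 40 or more, 0 of 62 and 4 of 82 (4.88%) were, against 0.516% and 2.38%, so the lists differed in this way at all peaks and not at these genes alone. At like strength, the list-only share at these genes was above that of all peaks in every WT class and in Tle4cKO under 25. Whether this goes beyond counting error was not tested. Most list-only peaks lay inside the genes, 30 of 36 in Tle4cKO and 27 of 36 in WT. Within 1000 bp of a gene end lay 1 in Tle4cKO and 0 in WT. That 1 peak, with a pileup of 9, lay at the high-coordinate end of Smad2 (chromosome 18, 76310833 to 76311032).

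Shared peaks formed 117 pairs, in which each peak was the strongest overlapping peak of the other. Their median relative log2 ratio was 0.04, with a middle range of -0.08 to 0.20, and 68 of 117 pairs lay above 0, against 47.4% of all 92328 pairs. Of the 117, 4 were at least 1.5-fold higher in Tle4cKO on this scale and 2 at least 1.5-fold lower, where 3.55% and 3.82% of all pairs were. The counting interval of the pileup ratio excluded the like-pileup ratio in 0 of the 117, above or below, where it did so above in 0.686% and below in 0.62% of all pairs. All 6 pairs past 1.5-fold had a summed pileup under 150, and 0 of 38 stronger pairs were past it, against 0.110% of all pairs of that strength.

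**Figure D2:**
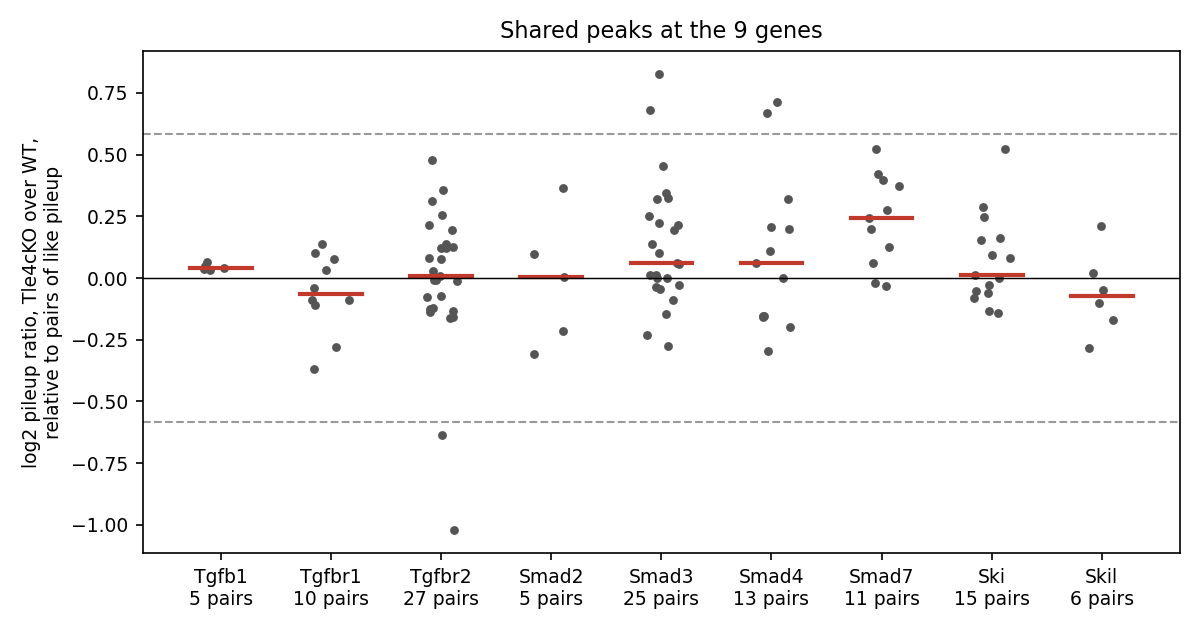
Relative log2 pileup ratio (Tle4cKO over WT, minus the median of pairs of like pileup) of each of the 117 pairs by gene; red bars are gene medians and dashed lines mark 1.5-fold. The median of Smad7, 0.24, is the highest of the 9, and the points of Tgfb1 lie between 0.03 and 0.06.

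Tgfb1, the ligand gene (chromosome 7, 25687002 to 25705077), had the narrowest spread of relative log2 ratios of the 9, from 0.03 to 0.06 over 5 pairs. All 5 had a summed pileup of 150 or more, where ratios vary less. Over all pairs the standard deviation of the relative log2 ratio was 0.14 in that class and 0.40 with a summed pileup under 50. Its peak over the start was 3457 bp wide in Tle4cKO (25686636 to 25690092, pileup 175). In WT the same stretch was called as 2 peaks, at 25686601 to 25688220 with a pileup of 158 and at 25688652 to 25690020 with 200. The strongest Tle4cKO peak, just past the other gene end at 25705602 to 25708374, had a pileup of 179, against 205 in WT, a ratio of 0.873 (95% Clopper-Pearson interval 0.711 to 1.07). The other 3 pairs lay in the flanks at the ends of the neighbours Tmem91, B9d2 and Ccdc97 or between them, with pileups of 113 to 173 in Tle4cKO and 142 to 197 in WT. Of its 7 Tle4cKO peaks 2 were Tle4cKO-only (11 and 9, the stronger at 25695851 to 25696094), and of its 6 WT peaks 0 were WT-only.

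Tgfbr1, the type I receptor gene (chromosome 4, 47353222 to 47414926), combined 1 strong start with many weak peaks that differed between the lists. At the start the pileup was 171 in Tle4cKO and 213 in WT, a ratio of 0.803 (0.653 to 0.986) where pairs of like pileup had 0.854. Of its peaks, 10 of 22 were Tle4cKO-only (45.5%, 26.9% to 65.3%) and 9 of 20 WT-only (45%, 25.8% to 65.8%). The Tle4cKO-only peaks had pileups of 9 to 16, so none came near the start peak in height. With a pileup of at least 15 in each list and the overlap redone, 1 Tle4cKO-only and 9 WT-only peaks were counted, and with at least 20, 0 and 8. These counts include WT peaks whose Tle4cKO partner fell below the minimum, such as the WT peak of 21 paired with 12 in Tle4cKO. The strongest WT-only peak, with a pileup of 74, lay upstream of the start at 47349985 to 47350199, with its summit at -3127 bases. It was 215 bp wide, and the nearest Tle4cKO peak was 1543 bp away. Another WT-only peak, with 41, lay inside the gene at 47357303 to 47357696, 1267 bp from the nearest Tle4cKO peak. Among all WT peaks with a pileup of 40 or more, 2.38% were WT-only, and 49.6% of those were under 300 bp wide.

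The 10 pairs of Tgfbr1 had a median relative log2 ratio of -0.07, with 4 above 0. The lowest was the intragenic pair at 47362809 to 47363008 in Tle4cKO, with pileups of 12 in Tle4cKO and 21 in WT (-0.37), and the highest that at 47399803 to 47400715, with 42 and 55 (0.14). None was past 1.5-fold.

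**Figure D3:**
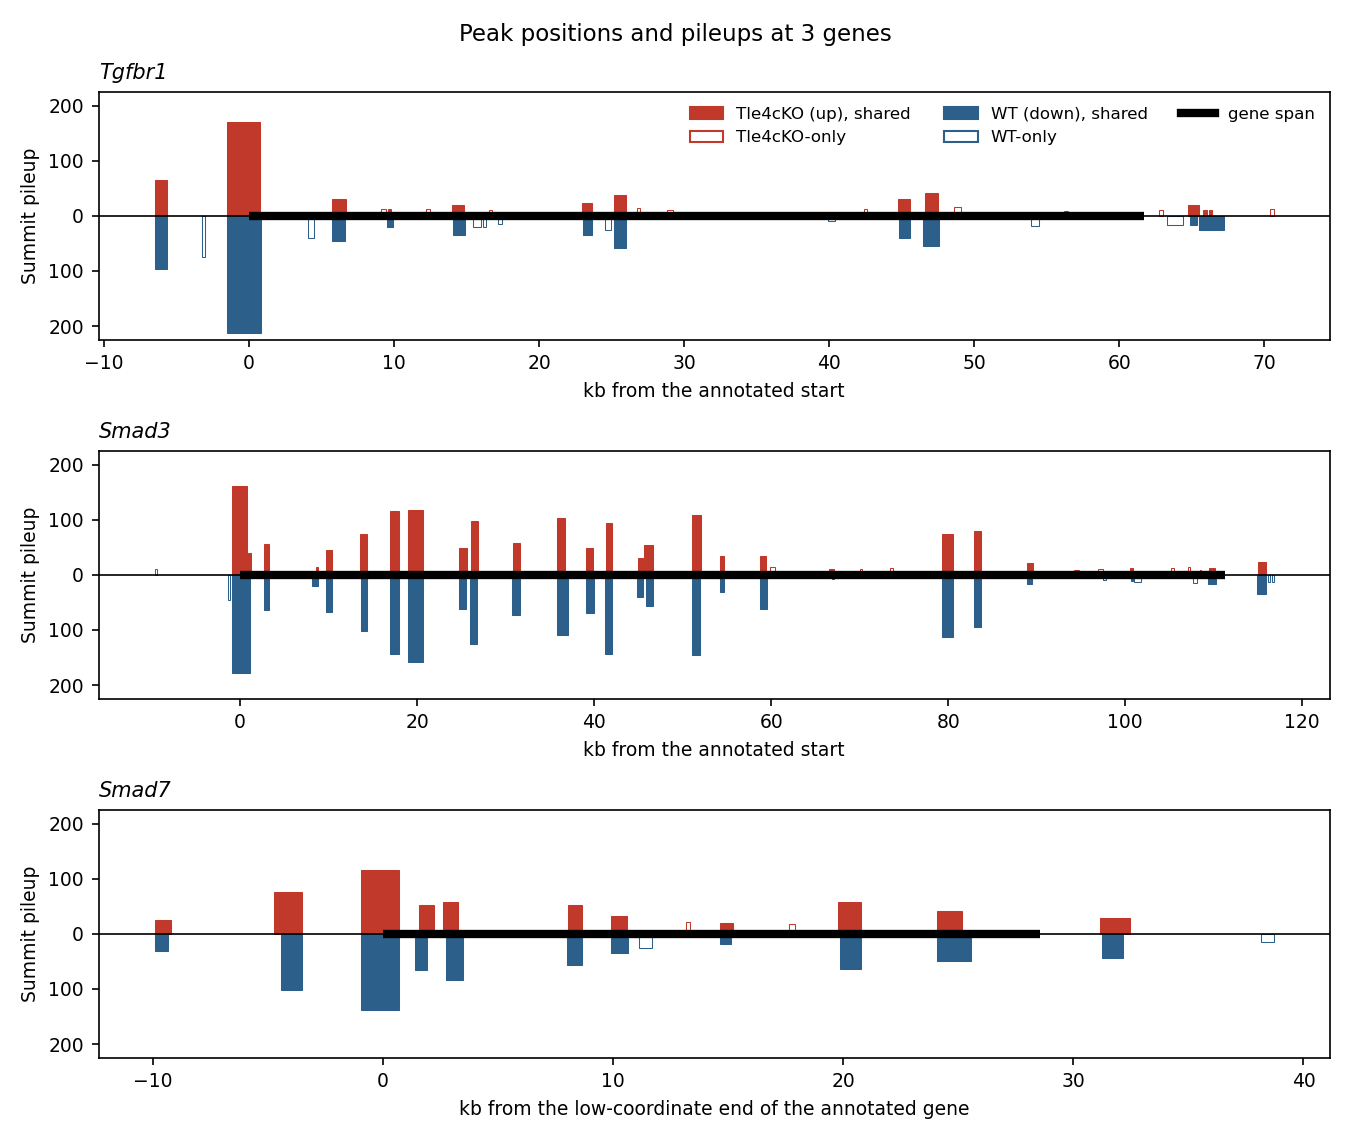
Peaks at Tgfbr1, Smad3 and Smad7 drawn to scale along each gene, in kb from the annotated start (Smad7: from the low-coordinate end of the annotated gene), with Tle4cKO pileup upwards and WT pileup downwards; open bars are list-only peaks and the black bar is the gene span. The strong peaks face each other in both lists, and the open bars are low, apart from the narrow WT-only bar of 74 upstream of Tgfbr1.

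Tgfbr2, the type II receptor gene (chromosome 9, 116087695 to 116175363), shared nearly all of its peaks between the lists. Only 2 of 29 Tle4cKO peaks (6.90%, 1.91% to 22.0%) and 2 of 30 WT peaks (6.67%, 1.85% to 21.3%) were list-only, the strongest with a pileup of 19 (116133363 to 116133727) in Tle4cKO and 10 in WT. These intervals lie below that of Tgfbr1 in Tle4cKO (26.9% at its lower end) and below its WT interval (25.8%). The shares are to be read with strength, since the median pileup of Tgfbr2 was 34 in Tle4cKO and 50 in WT, and that of Tgfbr1 13.5 and 30. Of all peaks with a pileup of 7 to 14, 56.2% in Tle4cKO and 71.6% in WT were list-only. With 25 to 39 these shares were 2.67% and 10.5%. Whether the receptors differ beyond their strength was not tested. At the start of Tgfbr2 the pileup was 143 in Tle4cKO and 178 in WT, and the summits lay 22 bp apart.

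The 27 pairs of Tgfbr2 had a median relative log2 ratio of 0.01, with 14 above 0. Both pairs of the 9 genes that were at least 1.5-fold lower in Tle4cKO lay inside this gene. One had a pileup of 23 in Tle4cKO (116156562 to 116156945) and 53 in WT, a ratio of 0.434 (0.254 to 0.720) against 0.674 for pairs of like pileup, which is 0.644-fold on the relative scale. The other had 8 in Tle4cKO (116112006 to 116112243) and 20 in WT, a ratio of 0.4 (0.152 to 0.948) against 0.813. Its Tle4cKO peak was 238 bp wide and its WT peak 827 bp. The pair that stood highest in Tle4cKO had 26 in Tle4cKO (116125392 to 116125714) and 28 in WT (0.48).

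Smad3, one of the SMADs that the receptor phosphorylates (chromosome 9, 63646766 to 63757994), had the most peaks of the 9 genes, 35 in Tle4cKO and 31 in WT. Strong and weak peaks lay in different parts of this gene. In the part of the gene from the start to its midpoint lay 18 Tle4cKO and 17 WT peaks, with median pileups of 57 and 72, and 0 of either were list-only. Beyond the midpoint lay 15 Tle4cKO and 10 WT peaks, with median pileups of 13 and 15, and 8 and 3 were list-only. This division did not hold at each of the other genes with a known strand. Tgfbr1 had 5 of 11 list-only peaks before its midpoint in each list, and the median pileup of Ski in WT was 74.5 before the midpoint and 95 beyond it. All 9 Tle4cKO-only peaks of the gene and its flanks had pileups of 9 to 15, and the 6 WT-only peaks had 9 to 45. The strongest WT-only peak, with 45, lay upstream of the start at 63759146 to 63759381 and was 216 bp from a Tle4cKO peak.

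At the Smad3 start the pileup was 162 in Tle4cKO and 179 in WT, with a relative log2 ratio of 0.14. The WT peak there was 2082 bp wide (63756861 to 63758942) and overlapped 2 Tle4cKO peaks, the second with a pileup of 39 at 63756756 to 63757054. Of 25 pairs, 16 lay above 0, with a median of 0.06. The pair at 63668445 to 63669104 had 21 in Tle4cKO and 17 in WT, a ratio of 1.24 (0.621 to 2.49) and 1.78-fold on the relative scale. The pair at 63703265 to 63703806 had 34 and 31, 1.60-fold on that scale. The lowest pair had 35 in Tle4cKO (63698556 to 63699240) and 61 in WT (-0.28).

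Smad2, the partner of Smad3 in the pathway (chromosome 18, 76241090 to 76311748), was sparse by comparison, with 9 Tle4cKO and 14 WT peaks over a gene of 70659 bp. Its strongest peak spanned the low-coordinate gene end at 76240873 to 76242597, with a pileup of 171 in Tle4cKO and 200 in WT and a relative log2 ratio of 0.00. Of the 14 WT peaks 9 were WT-only (64.3%, 38.8% to 83.7%), the highest share of the 9 genes in that list, and of the 9 Tle4cKO peaks 4 were Tle4cKO-only (44.4%, 18.9% to 73.3%). Most Smad2 peaks were weak, and of all WT peaks with a pileup of 7 to 14, 71.6% were WT-only, so its share is to be read against that value and not the 27.1% of the whole list. With a pileup of at least 15 in each list and the overlap redone, 0 Tle4cKO-only and 3 WT-only peaks were counted, and with at least 20, 0 and 1. The 3 include the WT peak of 17, whose Tle4cKO partner of 11 fell below the minimum. Without a minimum, the WT-only peaks other than 1 had pileups of 9 to 15. The exception, with 61, lay inside the gene at 76244856 to 76245103, was 248 bp wide and lay 2259 bp from the nearest Tle4cKO peak. The 4 Tle4cKO-only peaks had pileups of 9 and 10. The 5 pairs ran from -0.31 (11 in Tle4cKO at 76254385 to 76255326, 17 in WT) to 0.37 (13 at 76313792 to 76313996, 11 in WT).

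Smad4, the SMAD common to the TGF-beta and BMP branches (chromosome 18, 73634790 to 73703791), had 1 strong peak and many weak ones. The peak across the high-coordinate gene end had nearly the same pileup in both libraries, 143 in Tle4cKO (73702853 to 73704421) and 144 in WT, a ratio of 0.993 (0.782 to 1.26) where pairs of like pileup had 0.795. Inside the gene, 2 neighbouring pairs were both at least 1.5-fold higher in Tle4cKO on the relative scale. The stronger had 37 in Tle4cKO (73642902 to 73643579) and 33 in WT, a ratio of 1.12 (0.682 to 1.85) and 1.64-fold relative to pairs of like pileup. The other had 22 (73644395 to 73645276) and 20, 1.59-fold. The lowest pair had 15 in Tle4cKO (73665779 to 73666666) and 26 in WT (-0.30), and over 13 pairs the median was 0.06. List-only pileups were 12 to 13 for 3 peaks in Tle4cKO and 11 to 14 for 4 peaks in WT.

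Smad7, the inhibitory SMAD and itself a target gene of TGF-beta (chromosome 18, 75367365 to 75395935), had the highest median relative log2 ratio of the 9 genes. Of its 11 pairs 9 lay above 0, with a median of 0.24. The order-statistic interval of that median over pairs, -0.02 to 0.42, includes 0. In addition, the median percentile rank among all pairs was 6.13 points higher in Tle4cKO than in WT. Of 6858 protein-coding genes with at least 5 pairs, 98.0% had a lower median, and the 10th and 90th percentiles of those medians were -0.13 and 0.13. No single pair was past 1.5-fold. The peak across the low-coordinate gene end (75366442 to 75368076) had a pileup of 116 in Tle4cKO and 138 in WT, a ratio of 0.841 (0.651 to 1.08) against 0.770 for pairs of like pileup. Inside the gene the pair at 75375396 to 75376033 had 52 in Tle4cKO and 57 in WT (0.40), that at 75377274 to 75377956 had 32 and 35 (0.42), that at 75382029 to 75382582 had 19 and 19 (0.52), and that at 75387163 to 75388141 had 58 and 64 (0.37). The pairs below 0 were those at 75369996 to 75370655, with 58 and 83 (-0.02), and at 75398510 to 75399846, with 29 and 44 (-0.03). The raw pileup was thus lower in Tle4cKO in 10 of 11 pairs and equal in 1, and the position of the gene rests on the reading against pairs of like pileup. Each list held 2 peaks of its own of 13, with pileups of 22 and 18 in Tle4cKO and 26 and 15 in WT.

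Ski (chromosome 4, 155154075 to 155222535) had a peak on either side of its uncovered start and a strong one inside the gene. The upstream one (155222885 to 155223948) was the strongest of the gene, with a pileup of 153 in Tle4cKO and 194 in WT, and its summit lay at -792 bases from the start in Tle4cKO and at -917 in WT. The downstream one (155221695 to 155222397) had 70 and 80, with its summit 289 and 703 bases after the start. The intragenic peak at 155200558 to 155201856 was stronger than the downstream one, with 137 in Tle4cKO and 173 in WT (-0.03). Of 15 pairs 8 lay above 0, with a median of 0.01. The extremes were the intragenic pairs at 155186858 to 155187966, with 64 in Tle4cKO and 98 in WT (-0.14), and at 155171034 to 155171371, with 19 and 19 (0.52). Ski held 2 Tle4cKO-only peaks of 20, each with a pileup of 16, and 1 WT-only peak of 17, with 35 (155217240 to 155217476), 411 bp from a Tle4cKO peak.

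Skil (chromosome 3, 31095058 to 31122923), which encodes the related corepressor SnoN and is itself induced by TGF-beta, had a strong low-coordinate end that was called differently in the libraries. In Tle4cKO it was 2 peaks, at 31093460 to 31094163 with a pileup of 131 and at 31094315 to 31096178 with 179. In WT it was 1 peak of 2721 bp, at 31093491 to 31096211, with 207. A peak in the flank at 31083688 to 31085211 had 132 in Tle4cKO and 169 in WT. The 6 pairs had a median relative log2 ratio of -0.07, with 2 above 0. They ran from -0.28, with 57 in Tle4cKO (31089871 to 31090404) and 97 in WT, to 0.21, with 56 (31108997 to 31109664) and 69. List-only pileups were 13 and 11 in Tle4cKO, and 28 (31100979 to 31101183), 23 and 11 in WT.

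The paired peaks had similar widths and summits in the libraries. Over the 117 pairs the Tle4cKO peak was 0.968 times as wide as the WT peak at the median, and wider in 46 pairs (39.3%), against 0.931 times and 30.0% of all pairs. Smad7 was the 1 gene of the 9 whose median lay above 1, with 1.07 times and 8 of 11 pairs wider in Tle4cKO. Skil lay lowest, with 0.80 times and 0 of 6. Summits of a pair were 49 bp apart at the median, against 44 bp over all pairs, and 60 of 117 lay within 50 bp. Distances shrank with strength, with member medians of 151, 44 and 30 bp for a summed pileup under 50, from 50 to under 150, and of 150 or more, against 94, 39 and 18 bp over all pairs. The 3 largest distances at a summed pileup of 150 or more were 832 bp inside Ski, 782 bp at the low-coordinate end of Skil and 666 bp at that of Smad7.

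**Figure D4:**
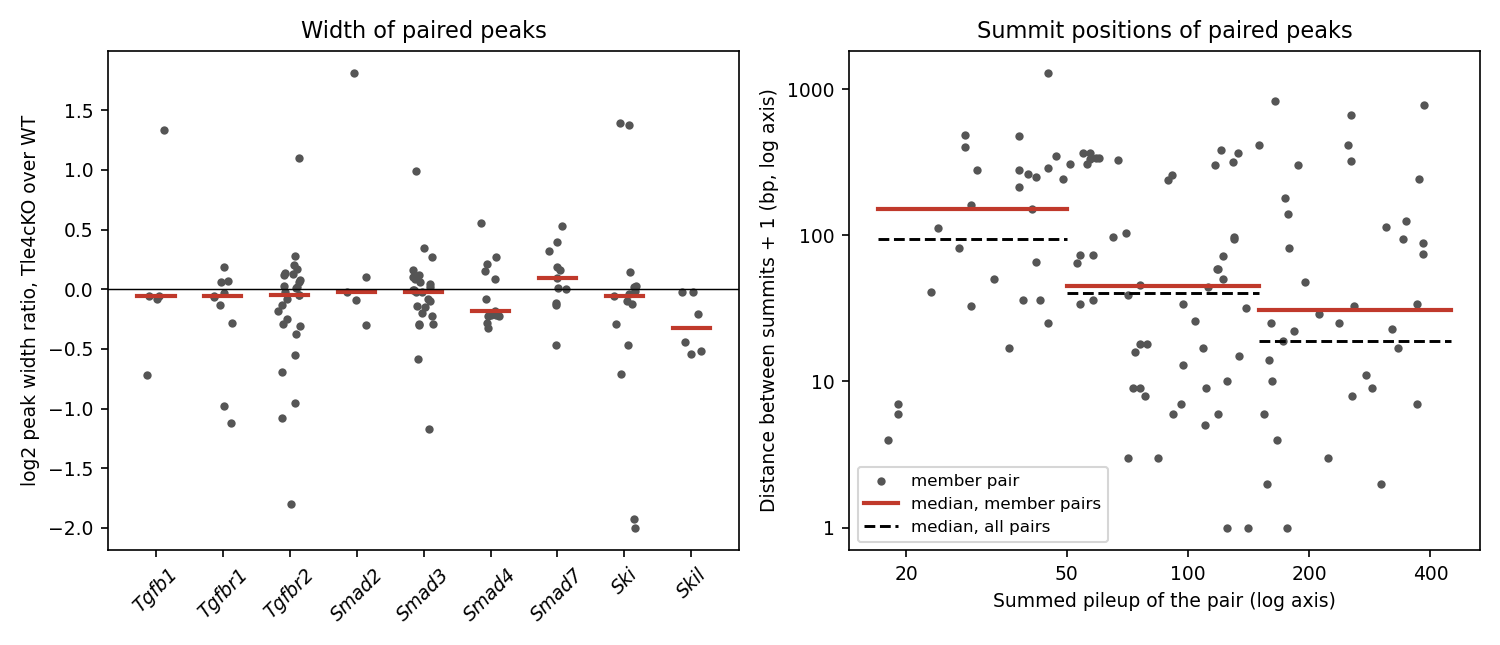
Left, log2 of the Tle4cKO over the WT peak width of each pair by gene, with red median bars; right, distance between the summits of each pair (plus 1 bp, log axis) against the summed pileup (log axis), with red and dashed lines for the medians of member pairs and of all pairs in 3 strength classes. Widths scatter around 0 in most genes, and the red lines at 151, 44 and 30 bp (drawn plus 1) lie above the dashed ones at 94, 39 and 18 bp.

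Other genes of the pathway were counted by role. These 57 genes held 101 Tle4cKO-only peaks of 507 (19.9%) and 144 WT-only peaks of 530 (27.2%), against 23.5% and 27.1% of all peaks. More Tle4cKO-only peaks were held by 13 genes, more WT-only by 29, and equal numbers by 15. The whole lists too held more WT-only (34872) than Tle4cKO-only (30079) peaks. A gene-end peak was present at 48 of them in Tle4cKO and 51 in WT. Of 382 pairs, 16 (4.19%) were at least 1.5-fold higher in Tle4cKO and 11 (2.88%) at least 1.5-fold lower, near the 3.55% and 3.82% of all pairs.

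Among ligands, peaks were few, and 3 of 8 genes had a gene-end peak in Tle4cKO and 5 of 8 in WT. Bmp2 and Bmp4 each held 1 Tle4cKO-only peak, with pileups of 13 and 8, and 0 WT-only ones. Of the genes that store and free latent TGF-beta, 2 had more Tle4cKO-only and 6 more WT-only peaks. Their list-only shares were 19.8% in Tle4cKO and 27.4% in WT, against 23.5% and 27.1% of all peaks. Itgb8, a subunit of an integrin that activates TGF-beta, held 0 Tle4cKO-only and 5 WT-only peaks, all with pileups of 13 or less. It also held an intragenic pair of pileup 10 in Tle4cKO (chromosome 12, 119170195 to 119170636) and 31 in WT. The ratio of this pair, 0.323 (0.141 to 0.675), lay below the 0.708 of pairs of like pileup, as the interval did in 0.62% of all pairs. Ltbp2, a latent TGF-beta binding protein gene, held 2 Tle4cKO-only and 5 WT-only peaks. It also held a pair of 18 in Tle4cKO and 15 in WT, 1.54-fold on the relative scale. The ratio interval of that pair, 0.571 to 2.56, includes the 0.778 of pairs of like pileup.

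Of the other receptors, Tgfbr3, which encodes the co-receptor betaglycan, held 9 Tle4cKO-only peaks of 12, none above a pileup of 11, and 3 WT-only peaks. Its gene-end pair had 21 in Tle4cKO and 47 in WT, 0.654-fold on the relative scale, with a ratio interval of 0.254 to 0.762 that includes the 0.683 of pairs of like pileup. Bmpr2, a BMP receptor gene, held 0 Tle4cKO-only and 4 WT-only peaks, with pileups up to 19. It also held a pair of 18 in Tle4cKO and 12 in WT, 1.85-fold on the relative scale. The ratio interval of that pair, 0.684 to 3.41, includes the 0.813 of pairs of like pileup.

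The other SMAD genes held 3 Tle4cKO-only peaks of 26 (11.5%, 4.00% to 29.0%) and 13 WT-only peaks of 35 (37.1%, 23.2% to 53.7%). The shares of the whole lists, 23.5% and 27.1%, lie within these intervals. Most of these were at Smad6, the second inhibitory SMAD, on the same chromosome as Smad3 (chromosome 9, 63953076 to 64022085), which had 2 in Tle4cKO and 9 in WT. Near the high-coordinate end of Smad6 both lists had narrow peaks of their own: in Tle4cKO with pileups of 41 (64018455 to 64018671) and 40 (64018819 to 64019047), and in WT with 46 (64020512 to 64020772) and 54 (64020975 to 64021189). The start region of Smad6 held the SMAD palindrome GTCTAGAC, found in 0.213% of all promoter entries, and was covered by a peak in both lists. A start region of Runx3 (chromosome 4, 135152295 to 135152594) held it too, under peaks of 112 in Tle4cKO and 146 in WT. Both were found by searching the listed start regions of 41 of the 57 pathway genes, so neither was chosen beforehand for this motif. Smad9 held 0 Tle4cKO-only and 2 WT-only peaks, each with a pileup of 13.

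Inhibitors and ubiquitin ligases had 8 of 63 pairs at least 1.5-fold higher in Tle4cKO (12.7%) and 0 lower, against 3.55% and 3.82% of all pairs. Several of the 8 were weak, and of all pairs with a summed pileup under 50, 15.1% were past 1.5-fold in one direction or the other. Of the 8, 4 lay at Pmepa1, a TGF-beta-induced gene whose product sequesters SMADs, which was chosen after its values were seen. Its pairs had pileups of 44 in Tle4cKO and 39 in WT (chromosome 2, 173264657 to 173264914), 43 and 39 (173234026 to 173234834), 21 and 18 (173246439 to 173246985) and 20 and 19 (173236397 to 173236917), which is 1.67-fold, 1.63-fold, 1.68-fold and 1.51-fold on the relative scale. For the first 2 of these the ratio interval (0.716 to 1.78 and 0.698 to 1.75) lay above the 0.677 of pairs of like pileup. Such an interval lay above in 0.686% of all pairs, which is to be read beside the single pairs named here. Smurf1, a ubiquitin ligase for SMADs and the receptor, had 6 peaks in Tle4cKO alone and 3 in WT alone. One of its pairs had a pileup of 21 in Tle4cKO and 10 in WT (chromosome 5, 144954637 to 144954914), 2.75-fold on that scale, with a ratio interval of 0.947 to 4.99 above the 0.765 of pairs of like pileup. Trim33, which binds SMAD2 and SMAD3, had 2 Tle4cKO-only and 7 WT-only peaks. It also had a pair of 16 in Tle4cKO and 11 in WT, 1.82-fold on that scale. The ratio interval of that pair, 0.634 to 3.47, includes the 0.8 of pairs of like pileup.

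Of the SMAD partners, the coactivator genes Crebbp and Ep300 had more WT-only peaks. At Crebbp, 9 of 24 Tle4cKO and 18 of 33 WT peaks were list-only, and at Ep300 3 of 11 and 7 of 14. The list-only pileups were at most 19 at Crebbp and 15 at Ep300. Of all peaks with a pileup of 7 to 14, 56.2% in Tle4cKO and 71.6% in WT were list-only. Crebbp had a pair of 16 in Tle4cKO and 10 in WT (1.87-fold) and one of 8 and 14 (0.629-fold). Ep300 had one of 15 and 10 (1.77-fold). Each ratio interval included the ratio of pairs of like pileup. Foxo3, named here after its values were seen, differed by as many peaks as Ep300 in the other direction, with 9 and 5. Genes that respond to TGF-beta had 9 list-only peaks of 72 in Tle4cKO (12.5%, 6.72% to 22.1%) and 10 of 71 in WT (14.1%, 7.83% to 24.0%). The 23.5% and 27.1% of all peaks lie above these intervals. Other lists had shares as low, with 13.0% and 9.52% at the macrophage markers and 6.90% and 10.3% at the fibroblast markers. The marker lists share Cx3cr1 (macrophage) and Col1a1 (fibroblast) with the response genes. Of the 60 pairs of the response genes, 0 were at least 1.5-fold higher in Tle4cKO and 3 (5.0%) lower. Over all pairs these shares were 3.55% and 3.82%. At Fn1, which encodes fibronectin, 4 Tle4cKO-only peaks had pileups up to 13, and no peak was WT-only. Cx3cr1, the fractalkine receptor gene that TGF-beta raises in gut macrophages, held 0 Tle4cKO-only peaks and WT-only peaks of 38 and 42 in its flanks.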

How the data were processed

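The members and gene lists were chosen with earlier results of these data known. The authors deposited 1 peak list per library, with start, end, width, summit and pileup. As deposited, the pileup signal is a whole number of at least 7, with no scaling between libraries recorded in the file headers. Width and summit position are other values in bp, as deposited. Tools listed without roles in the submitters' processing notes are MACS2 2.1.1, HOMER 4.7.2, Bowtie2 2.2.5, edgeR 3.28.1, cutadapt 1.14 and featureCounts 1.5.0, with the build mm10. For calling thresholds, read shifting for the transposase and duplicate handling, nothing is stated in the labels or headers used here. The same holds for read totals, so the depth is unknown. Peak calling near its threshold, and the splitting or merging of broad peaks, affect the counts.

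Coordinates count from 1. Gene spans came from RefSeq GRCm38.p6, which matched all 111 listed genes and gives no exons, so exons and introns were not assigned. Promoter sequences are RefSeq's, for 5 of 9 members. List-only peaks overlap the other list by less than 1 bp (checked with bedtools 2.31.1). Pairs are each other's strongest overlapping peak. A pair was called past 1.5-fold relative to its bin. Ratio intervals are 95% Clopper-Pearson, approximate because a pileup is a maximum. No test between genotypes was made, with 1 library each. The steps were tested on simulated data. Named genes were all members and, per role list, up to 2 genes with the largest difference in list-only peaks, ties by symbol. Alternatives were the flank, the overlap, pileup minimums, list length and the bins. Python 3.11.15, pandas 2.3.3 and scipy 1.17.1 were used.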

Additional observations from a re-analysis of the deposited data

How the results depend on the processing

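No paired analysis was possible because each genotype has 1 library. Of the recomputed summary values over the 9 genes, 41 stayed within 1.5 times a count or within the order-statistic interval of a median, and 13 did not. The medians of relative ratio, percentile shift, width ratio and summit distance stayed within that interval under every alternative run for them. The counts of peaks, given for Tle4cKO and WT, moved as follows. With 50 kb on either side there were 263 and 268 peaks, and 64 WT-only (23.9%, against 27.1% of all peaks). With neighbours within 500 bp counted as shared, 23 WT-only peaks were left. With a pileup of at least 15 there were 7 and 22 list-only peaks (6.03% and 16.8%, against 4.87% and 22.4% of all peaks). With at least 20 there were 97 Tle4cKO peaks, and 2 and 23 list-only (2.06% and 19.5%, against 2.70% and 23.2%). In the 60000 strongest peaks of each list there were 94 and 92 peaks, and 8 and 6 list-only (8.51% and 6.52%, against 7.31% and 9.73%). A fixed pileup minimum removes more of the Tle4cKO list, whose median pileup is lower, and the equal list-only counts of 36 and 36 did not stay equal under it, as in the whole lists. The overlap was redone after each minimum, so a peak whose partner in the other list fell below it counted as list-only. Of the values of single genes, 233 stayed and 91 moved. The median of Smad7 stayed above 0 in 8 of 8 alternatives, between 0.13 and 0.31, as did those of Tgfb1 and Smad3. That of Tgfbr2 kept its sign in 3 of 8, that of Ski in 5, and those of Tgfbr1, Smad2, Smad4 and Skil in 7. Unknown depth and weak pileups limit the list-only counts.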
